A study of Zea mays with 48 samples.

Results

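Methyl-CpG-binding domain (MBD) genes were followed in embryos and endosperm of maize hybrids and their inbred parents. The 5 probes described are P_MBD101, P_MBD106, P_MBD108, P_MBD109 and P_MBD113, written from here on without the prefix. They were taken by probe name out of 3585 probes, with earlier results of these data known. Each name matched a maize gene symbol in RefSeq (5 of 5). Inbred lines UH301, UH005 and UH250 were grown in a glasshouse and pollinated by themselves or with each other, and tissue was dissected 6 days after pollination. Reciprocal hybrids were made between UH301 and UH005 ( 301x005 and 005x301) and between UH301 and UH250 (301x250 and 250x301). The labels do not say which line bore the seed, by convention the first-named. Each of the 48 two-colour arrays set 1 hybrid against 1 of its inbred parents. The 4 arrays of a cross, tissue and replicate number form a loop, and cross 301/005 has 4 loops per tissue where cross 301/250 has 2.

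MBD proteins carry a domain that, in the best studied members, binds DNA at methylated CpG sites. In animals such proteins read DNA methylation and bring histone deacetylases and chromatin remodelling complexes to it. Plants have a larger family, and not all of its members bind methylated DNA. Endosperm is the nutritive tissue of the kernel, holds more maternal than paternal genome copies, and is the main site of parental imprinting in plants, in which DNA methylation takes part. The individual tasks of the 5 maize genes are not well enough known to be given here.

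All values are log2 ratios of hybrid over inbred, or differences between such ratios, so levels of different genes and of the tissues cannot be compared. No array set embryo beside endosperm, so the tissue labels could not be checked against markers. The direction of the deposited ratio is not stated, and channel 1 over channel 2 is likely because titles name the RNAs in that order. If it ran the other way, every sign in the text would turn. In tissue samples, fewer cells that hold a transcript and less of it per cell cannot be told apart.

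An array had values for 926 to 3430 probes. The 623 probes named with the prefix P (the P set), which include the 5 MBD probes, had no value on 10 arrays. All 4 arrays of 301/005 embryo replicates 1 and 2 lacked them, as did the arrays 005x301 over 301 and 301x005 over 005 of endosperm replicate 2. The 301/005 embryo values therefore come from replicates 3 and 4 alone, and in replicate 4 the arrays held between 135 and 434 P probes. On the 38 arrays with P values, the 5 probes had 178 of 190 possible values. Across all probes, arrays of a group with the same dye orientation correlated at r 0.07 to 0.58, with a median of 0.29 over 16 pairs. Arrays of opposite orientation, after turning, correlated at -0.47 to 0.42, with a median of 0.05 over 40 pairs. Probes are not independent replicates, and these coefficients are descriptions.

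The MBD ratios were small on most arrays and lay on both sides of 0. MBD101 ranged from -0.96 to 0.97 around a median of -0.04 on 37 arrays. MBD106 ranged from -1.22 to 1.41 around -0.09 on 37 arrays, and MBD109 from -1.08 to 0.91 around -0.14 on 36 arrays. The SD over arrays was 0.43 for MBD101, 0.52 for MBD106 and 0.47 for MBD109, near the median of 0.50 over 511 P probes. MBD108 and MBD113 were more variable. MBD108 ranged from -2.31 to 1.78 on 35 arrays with an SD of 0.79, larger than that of 82.5% of the P probes. MBD113 ranged from -1.96 to 1.79 on 33 arrays with an SD of 0.72, larger than that of 77.5% of them.

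**Figure D1:**
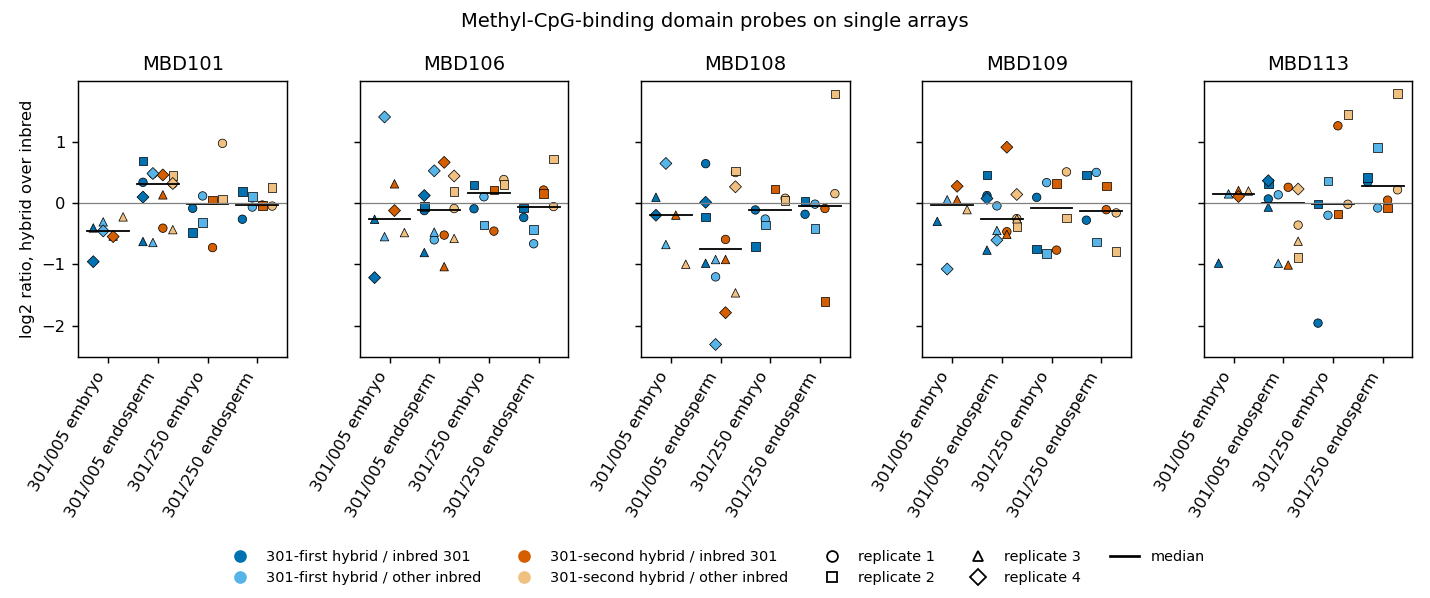
Log2 ratio of hybrid over inbred on single arrays for each of the 5 MBD probes, by cross and tissue. Colours give the hybrid and inbred on the array, symbols the replicate number and black bars the median of a cross and tissue. All 7 MBD101 values of the 301/005 embryo lie below 0, and MBD108 spans the widest range, from -2.31 to 1.78.

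The first comparison asks whether the hybrids depart from the mid-parent (the average of their inbred lines). No MBD probe passed in any cross or tissue. Limma called 0 of 18 tests at an adjusted p of 0.05, and 0 were under an unadjusted 0.05. Over all probes 0% were called in each of the 4 combinations of cross and tissue, while 1.95% to 7.98% had an unadjusted p under 0.05. The 95% intervals of the 18 MBD differences reached from -1.03 (MBD108, 301/005 endosperm) to 0.97 (MBD113, 301/250 endosperm). The data do not show that the hybrids matched the mid-parent.

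MBD101 was lower in the hybrid than in the inbred on every array of the 301/005 embryo that measured it, without passing the test. In replicate 3 the values were -0.41 for 301x005 over 301, -0.31 for 301x005 over 005, -0.54 for 005x301 over 301 and -0.23 for 005x301 over 005. In replicate 4, with the dyes swapped, 301x005 over 301 measured -0.96, 301x005 over 005 -0.46 and 005x301 over 301 -0.55. All 7 arrays lay below 0. The array medians of the P set were 0.08 to 0.16 in replicate 3, and -0.63, -0.07 and 0.14 on those 3 arrays of replicate 4, so the lowest MBD101 value stood on the array with the lowest P median. That array does not enter the mid-parent value of replicate 4, which rests on the arrays at -0.46 and -0.55. The fitted mid-parent difference was -0.44 ± 0.21 (SE, n = 2 loops at -0.37 and -0.50), with a limma adjusted p of 0.628, and -0.24 ± 0.35 without replicate 4. That last value is the replicate 3 loop at -0.37 shifted by the dye coefficient of the fit. In the endosperm of the same cross 10 of 14 MBD101 values lay above 0, and the 4 loops measured 0.18, 0.57, -0.39 and 0.34. The fitted endosperm value was 0.17 ± 0.15 (SE, n = 4). The endosperm minus embryo difference of this contrast was 0.61 ± 0.25 (SE, n = 6 loops, 95% interval 0.02 to 1.20), with an unadjusted p of 0.0445 and a limma adjusted p of 0.758. Without replicate 4 it was 0.40, with the lone embryo loop again shifted by the dye coefficient. In cross 301/250 MBD101 measured -0.05 ± 0.21 in embryo and 0.01 ± 0.21 in endosperm (SE, n = 2 each).

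MBD108 had the mid-parent difference with the lowest unadjusted p of the 5 probes in the 301/005 endosperm, at -0.51 ± 0.22 (SE, n = 4 loops), with a limma adjusted p of 0.679. Its loops were uneven, at -0.17, 0.15, -1.07 and -0.96. Replicates 3 and 4 lay far below the mid-parent while replicates 1 and 2 lay on either side of it, and replicate 2 rests on the arrays of the hybrids over their first-named parents alone. The replicate 4 loop averages 0.14 over the first-named and -2.05 over the second-named parents. The fitted value was -0.74 without replicate 1, -0.79 without replicate 2, -0.30 without replicate 3 and -0.32 without replicate 4. In cross 301/250 MBD108 measured -0.11 ± 0.31 in embryo and -0.05 ± 0.31 in endosperm (SE, n = 2 each). The 301/005 embryo had a single loop for it, at -0.44.

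Values of the other 3 probes were as follows. MBD106 measured 0.20 ± 0.19 in the 301/005 embryo (n = 2 loops at -0.25 and 0.64), -0.14 ± 0.14 in the endosperm (n = 4), and 0.05 ± 0.19 and -0.05 ± 0.19 in embryo and endosperm of 301/250 (n = 2, all SE). In that 301/005 embryo 5 of 7 arrays lay below 0, with a median of -0.27. The loop at 0.64, with 1 array missing, leaves out the array at -1.22. A fit of single arrays with the replicate block gave -0.04. MBD109 lay below the mid-parent in each combination, at -0.24 ± 0.19, -0.12 ± 0.14, -0.17 ± 0.19 and -0.09 ± 0.19 in the same order, each within 1.5 standard errors of 0. MBD113 measured -0.16 ± 0.16 in the 301/005 endosperm (n = 4) and 0.09 ± 0.22 in the 301/250 embryo (n = 2). Its highest value was 0.44 ± 0.22 in the 301/250 endosperm (SE, n = 2 loops at 0.13 and 0.76, limma adjusted p = 1), with 6 of 8 arrays above 0.

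In the 301/005 endosperm the MBD probes leaned the same way within replicates 3 and 4, and opposite ways between them. In replicate 3, 19 of 20 array values of the 5 probes lay below 0, with a median of -0.64. The array medians of the P set were -0.08 to 0.00 in that replicate. In replicate 4, 15 of 18 values lay above 0, with a median of 0.25. The mid-parent values of replicate 3 were below 0 for 5 of 5 MBD probes (median -0.67), where 52% of P probes lay below 0 (median -0.01). In replicate 4 they were below 0 for 1 of 5 (median 0.30), where 53% of P probes did (median -0.03). The other 5 probes whose names begin with MBD (MBD105, MBD111, MBD114, MBD116 and MBD119) showed the same split, with 5 of 5 below 0 in replicate 3 and 1 of 5 in replicate 4. Of these other 5 names, 2 matched a RefSeq symbol. Replicate 3 carried the hybrids in Cy5 and replicate 4 in Cy3. Replicate 1, with the hybrids in Cy5, had 3 of 5 chosen and 5 of 5 other MBD probes below 0, and replicate 2, with the hybrids in Cy3, had 1 of 5 and 1 of 5 from its pair of arrays. Of the P probes 54.9% lay below 0 in replicate 1 and 34.5% in replicate 2. The deacetylase list described further on leaned like the MBD probes, with 7 of 11 below 0 in replicate 3 (median -0.10) and 3 of 12 in replicate 4 (median 0.29). The fitted dye coefficient was 0.29 ± 0.09 for MBD106 (limma adjusted p = 0.103), 0.24 ± 0.11 for MBD113 and within 0.10 of 0 for the other 3 probes. The part of dye in the split between replicates was not tested.

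**Figure D2:**
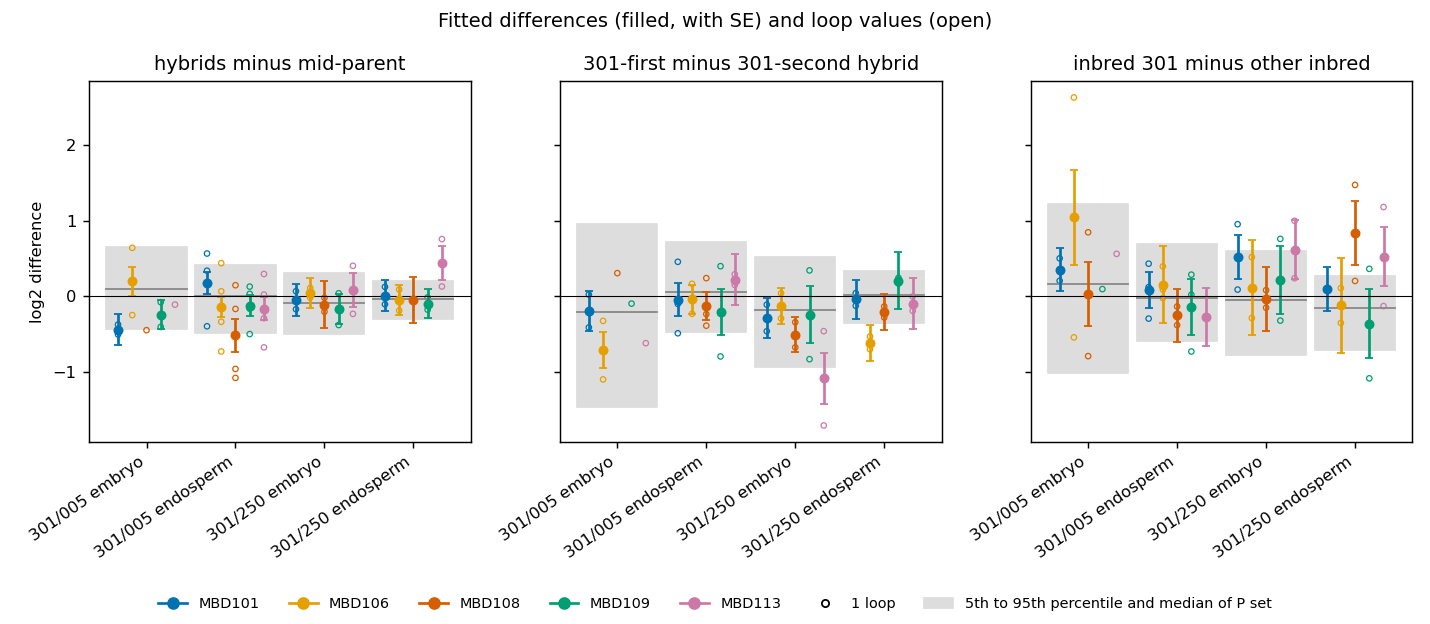
Fitted log2 differences with standard errors (filled points) and single loop values (open points) for the 5 MBD probes, by cross and tissue, for the hybrids minus the mid-parent, the 301-first minus the 301-second hybrid, and inbred 301 minus the other inbred. Grey boxes span the 5th to 95th percentile of fitted P probes. Most points lie inside the boxes, and the mid-parent value of MBD108 in the 301/005 endosperm is -0.51.

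The second comparison sets the reciprocal hybrids against each other, which exchange seed and pollen parent (301x005 minus 005x301, and 301x250 minus 250x301). Limma called 0 of 17 MBD tests, with 3 at an unadjusted p under 0.05. Over all probes 1.35% were called in the 301/005 endosperm and 0% in each of the other 3 combinations. The share of all probes with an unadjusted p under 0.05 was 8.24% in the 301/005 embryo and 12.6% in its endosperm. It was 13.8% in the 301/250 embryo and 1.76% in its endosperm.

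In embryos every tested MBD probe measured lower in the hybrid named with 301 first, but the P set leaned the same way. MBD101 and MBD106 in cross 301/005 and all 5 probes in cross 301/250 measured below 0, 7 of 7 tests. Of the other MBD probes 7 of 7 did as well. Over the P set 65.6% (median -0.21, 301/005) and 67.5% (median -0.19, 301/250) lay below 0, while the median of all probes was 0.03 and 0.05. With each array centred on the P set, an alternative added after the data were seen, MBD101 in the 301/005 embryo turned to 0.21 and MBD106 in the 301/250 embryo to 0.08. In endosperm 4 of 5 MBD probes lay below 0 in each cross, where 42.9% and 44.8% of P probes did, and 40.8% and 55.3% of all probes lay above 0. In the 301/005 endosperm the count was 2 of 5 with arrays centred on their median and 2 of 5 with arrays scaled.

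MBD113 had the widest reciprocal difference of the 5 probes, in the 301/250 embryo. It measured -1.08 ± 0.33 (SE, n = 2 loops at -1.70 and -0.46, 2.11-fold, 95% interval -1.91 to -0.25), with an unadjusted p of 0.02 and a limma adjusted p of 0.259. The value of replicate 1 came from the arrays over inbred 301. There 301x250 over 301 measured -1.96 and 250x301 over 301 measured 1.26, while over inbred 250 the same hybrids measured -0.20 and -0.02. Thus the reciprocal difference of replicate 1 was -3.22 through inbred 301 and -0.18 through inbred 250. In replicate 2 it was 0.17 through inbred 301 and -1.08 through inbred 250. The 301/250 endosperm gave -0.10 ± 0.33 (SE, n = 2), and the endosperm minus embryo difference was 0.98 ± 0.47 (SE, n = 4 loops, limma adjusted p = 0.844).

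MBD106 lay lower in the 301-first hybrid in the 301/005 embryo and the 301/250 endosperm. In the 301/005 embryo it measured -0.71 ± 0.24 (SE, n = 2 loops at -0.32 and -1.09, 1.63-fold), with an unadjusted p of 0.0197 and a limma adjusted p of 0.543. It was -0.31 (unadjusted p 0.184) with arrays centred on the P set, -0.47 with arrays scaled, and -0.23 (unadjusted p 0.548) in the fit of single arrays with the replicate block. With a spread from the 301/005 embryo loops alone, the SE was 0.36 and the unadjusted limma p 0.123. Replicate 4 of this embryo had the array 301x005 over 301 at -1.22 and the array 301x005 over 005 at 1.40, so that 1 hybrid stood far below 1 parent and far above the other. The array 301x005 over 301 had P values for 278 probes, with a P median of -0.63. In the 301/250 endosperm MBD106 measured -0.61 ± 0.24 (SE, n = 2 loops at -0.53 and -0.70, 1.53-fold), with an unadjusted p of 0.0359 and a limma adjusted p of 1. The 4 differences, through either inbred in 2 loops, were all below 0, from -1.15 to -0.24. In the 301/005 endosperm it measured -0.04 ± 0.20 (n = 3), and in the 301/250 embryo -0.12 ± 0.24 (n = 2).

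MBD108 measured -0.51 ± 0.23 in the 301/250 embryo (SE, n = 2 loops at -0.34 and -0.67, limma adjusted p = 0.407), and -0.23 (unadjusted p 0.39) with arrays centred on the P set. It measured -0.21 ± 0.23 in the 301/250 endosperm (n = 2) and -0.13 ± 0.19 in the 301/005 endosperm (n = 3). MBD101 stayed between -0.28 ± 0.26 (301/250 embryo) and -0.04 ± 0.26 (301/250 endosperm). MBD109 had loops of both signs in the 301/005 endosperm, at 0.40, -0.22 and -0.79, and fitted values from -0.24 ± 0.37 (301/250 embryo) to 0.21 ± 0.37 (301/250 endosperm).

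**Figure D3:**
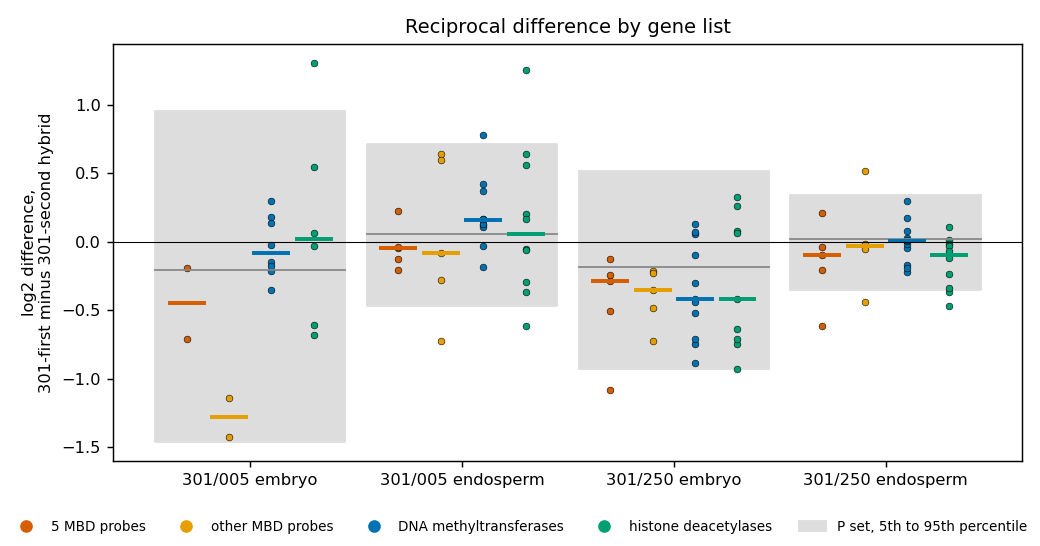
Fitted log2 difference of the 301-first minus the 301-second hybrid for each tested probe of 4 gene lists, by cross and tissue, with the list median as a bar. Grey boxes and lines give the 5th to 95th percentile and median of the P set. The 7 embryo values of the 5 MBD probes lie below 0, and the P set medians there are -0.21 and -0.19.

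The third comparison sets the inbred lines against each other through the hybrids (301 minus 005, and 301 minus 250). Limma called 0 of 18 MBD tests, with 0 at an unadjusted p under 0.05. Over all probes 0.0713% were called in the 301/005 embryo, 5.18% in the 301/005 endosperm, 0% in the 301/250 embryo and 0.0356% in the 301/250 endosperm. Between 4.52% and 18.1% of all probes had an unadjusted p under 0.05. In the 301/005 endosperm, where the inbreds differed most often, the 5 MBD values stayed between -0.27 ± 0.39 (MBD113) and 0.15 ± 0.51 (MBD106). The value farthest from 0 was that of MBD106 in the 301/005 embryo, at 1.04 ± 0.62 (SE, n = 2, limma adjusted p = 0.536). Its loops were -0.54 in replicate 3 and 2.62 in replicate 4, so the sign of the fitted value was that of replicate 4, and the fit of single arrays with the replicate block gave 0.56. MBD108 measured 0.84 ± 0.42 in the 301/250 endosperm (SE, n = 2 loops at 0.20 and 1.47, limma adjusted p = 1). MBD113 measured 0.62 ± 0.39 in embryo (0.98 with arrays scaled) and 0.53 ± 0.39 in endosperm of 301/250, and MBD101 0.52 ± 0.29 in embryo (SE, n = 2 each).

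The fourth comparison takes each hybrid over 1 inbred as single arrays measured it. Limma called 0 of 64 MBD tests, with 5 at an unadjusted p under 0.05. Without the dye coefficient 1 was called, MBD108 in the endosperm of 301x005 over inbred 005, a set in which 157 of all probes were then called. Over all probes 5.85% were called for 301x005 over 005 in endosperm and 4.29% for 005x301 over 301 in endosperm. The share was 0.039% for 301x250 over 250 in embryo, 0.0371% for 005x301 over 301 in embryo and 0% in each of the other 12 sets. Between 1.84% and 20.2% of all probes had an unadjusted p under 0.05, the most for 301x005 over 005 in endosperm.

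MBD108 stood lower in both 301/005 endosperm hybrids than in their second-named parents. The hybrid 301x005 over inbred 005 measured -1.21, -0.92 and -2.31 in replicates 1, 3 and 4. The hybrid 005x301 over inbred 301 measured -0.59, -0.92 and -1.79 in the same replicates. All 6 arrays lay below 0, with P medians on them of 0.07, 0.00 and -0.32, and of -0.26, -0.01 and -0.20. Over the P set 65.7% lay below 0 in the first ratio (median -0.13) and 60.1% in the second (median -0.11). Both ratios come from the same loops and the same dye orientations. The fitted value for 301x005 over 005 was -1.51 ± 0.34 (SE, n = 3, 2.85-fold, 95% interval -2.32 to -0.70), with an unadjusted p of 0.00303 and a limma adjusted p of 0.0507. Without the dye coefficient it was -1.48 with an adjusted p of 0.041, and over the other alternatives the adjusted p ran from 0.0542 to 0.352. For 005x301 over 301 too few degrees of freedom remained for a test.

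Against the first-named parents MBD108 in the same endosperm lay on both sides of 0. The hybrid 301x005 over 301 measured 0.64, -0.23, -0.98 and 0.01 in replicates 1 to 4, with a fitted value of -0.14 ± 0.25 (SE, n = 4). The hybrid 005x301 over 005 measured 0.50, 0.52, -1.47 and 0.26, with a fitted value of -0.05 ± 0.34 (SE, n = 4). Replicate 3 was low against every parent, and replicates 1 and 4 were low against the second-named parents alone.

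The arrays of a loop can be checked against each other, since the mean over the first-named parents and the mean over the second-named parents estimate the same mid-parent difference. For MBD108 these estimates parted in 3 of 7 complete loops. They were 0.57 and -0.90 in replicate 1 of the 301/005 endosperm, and 0.14 and -2.05 in replicate 4. In replicate 2 of the 301/250 endosperm they were 0.90 and -1.01. In replicate 3 of the 301/005 endosperm, where both were low, they were -1.23 and -0.92. The loop closure, the sum of 2 ratios minus the sum of the other 2, would be 0 in an error-free loop. It was 2.94, 4.38 and 3.83 in those 3 MBD108 loops and between -0.60 and 0.08 in the remaining 4, against a median size of 0.36 over 4032 loops of P probes, of which 1.93% exceeded 3. In replicate 4 of the 301/005 endosperm the arrays over second-named parents had 403 and 356 P values against 612 and 599 on the arrays over first-named parents, and the median closure of P probes was 0.67. Replicate 1 had no such gap, with 555 to 585 P values on each array.

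A reading of 1 contrast by 1 route can therefore differ in sign from the other route. In replicate 2 of the 301/250 endosperm the MBD108 difference of inbred 301 minus inbred 250 was -0.44 through 301x250 and 3.39 through 250x301. The arrays behind it were 1.78 for 250x301 over 250 and -1.61 for 250x301 over 301, beside -0.42 for 301x250 over 250 and 0.03 for 301x250 over 301. MBD113 had a closure of -3.04 in replicate 1 of the 301/250 embryo and a median size of 1.25 over 7 loops. For MBD101, MBD106 and MBD109 the median sizes were 0.45, 0.64 and 0.44 over 8 loops each, and the largest was 1.50. The cause of the gaps was not tested.

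**Figure D4:**
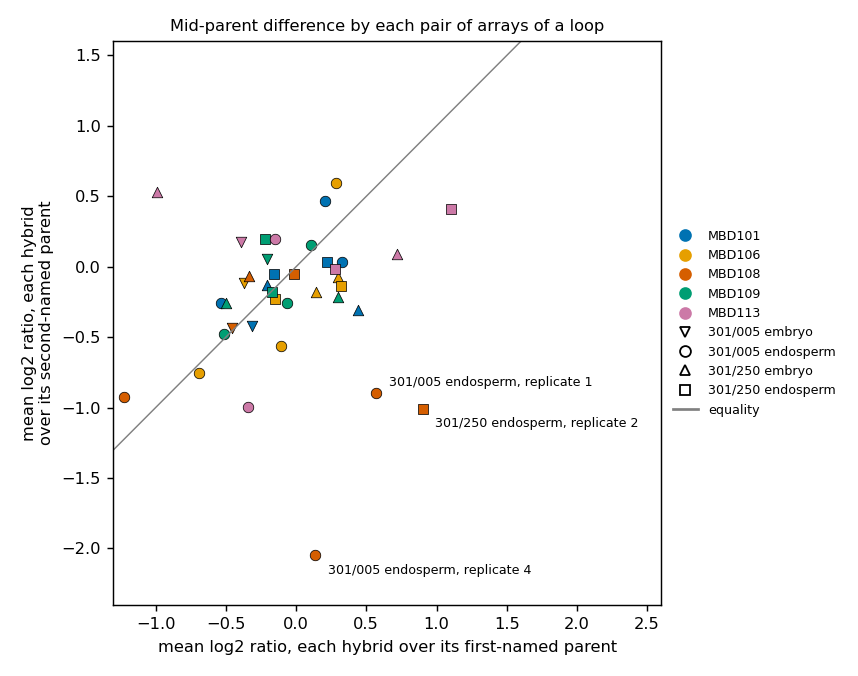
Mean log2 ratio of the hybrids over their second-named parents (vertical) against that over their first-named parents (horizontal), 1 point per MBD probe and complete loop, with the line of equality. The named points are the 3 MBD108 loops that part most, at 0.57 and -0.90, 0.14 and -2.05, and 0.90 and -1.01.

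The remaining single ratios with an unadjusted p under 0.05 rested on 2 or 3 arrays. MBD113 in embryo of 301x250 over 301 measured -0.99 ± 0.33 (SE, n = 2 at -1.96 and -0.01, limma adjusted p = 0.298). In endosperm of 250x301 over 250 it measured 1.00 ± 0.39 (SE, n = 2 at 0.22 and 1.79, limma adjusted p = 0.999). In each pair 1 array carried most of the value, and the array left without it measured -0.01 and 0.22. The fits without it gave -0.22 and 0.58, since the dye coefficient, then estimated from other crosses and tissues, shifts a lone array. MBD106 in embryo of 301x005 over 301 measured -0.74 ± 0.30 (SE, n = 2 at -0.27 and -1.22, limma adjusted p = 0.411), -0.47 with arrays centred on the P set and -0.10 without replicate 4. That last value is the array at -0.27 shifted by the dye coefficient. MBD109 in endosperm of 301x005 over 005 measured -0.52 ± 0.21 (SE, n = 3 at -0.05, -0.45 and -0.61, limma adjusted p = 0.22), with 3 of 3 arrays below 0, and -0.33 without replicate 3 or -0.82 without replicate 4. Without replicate 4 the arrays left, at -0.05 and -0.45, share 1 dye orientation and are shifted in the same manner.

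The fifth comparison asks whether any of the first 3 differences itself differs between endosperm and embryo. Limma called 0 of 23 MBD tests, with 1 at an unadjusted p under 0.05 (MBD101, mid-parent difference of 301/005, given above), and 0% of all probes in each of the 6 sets. Between 1.88% and 9.34% of all probes had an unadjusted p under 0.05 in these sets. For the reciprocal difference of MBD106 in cross 301/005 the endosperm exceeded the embryo by 0.67 ± 0.31 (SE, n = 5 loops, 95% interval -0.05 to 1.39, limma adjusted p = 0.564). The same quantity in cross 301/250 was -0.49 ± 0.34 (SE, n = 4 loops, limma adjusted p = 0.891).

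Genes that write DNA methylation and genes that remove histone acetyl groups were measured on the same arrays, with 12 DNA methyltransferase and 12 histone deacetylase probes. None of either list passed, in either direction, in the mid-parent, reciprocal or inbred comparison of any cross and tissue. Limma called 0 of 131 methyltransferase and 0 of 111 deacetylase tests, with 8 and 14 at an unadjusted p under 0.05. Of all probes 1.76% to 18.1% had an unadjusted p under 0.05 in the same sets. For the mid-parent difference in the 301/005 endosperm 9 of 12 methyltransferase probes lay below 0 (median -0.13), with DMT103 at -0.43 ± 0.13 (SE, n = 3, limma adjusted p = 0.679). Of the deacetylase probes 7 of 11 lay below 0 there (median -0.10), and HDA113 measured 0.54 ± 0.16 (SE, n = 4, limma adjusted p = 0.628). The median of all probes was -0.01. In the 301/005 embryo 7 of 9 deacetylase probes lay above the mid-parent (median 0.25), where 36.5% of P probes lay below it (median 0.10), with HDA113 at 1.26 ± 0.22 (SE, n = 2, unadjusted p 0.000523, limma adjusted p = 0.361). For the reciprocal difference in the 301/250 embryo 8 of 11 methyltransferase probes lay below 0 (median -0.42), with DMT101 at -0.88 ± 0.26 (SE, n = 2, limma adjusted p = 0.216). Of the deacetylase probes 5 of 9 did (median -0.42), with HDA117 at -0.71 ± 0.22 (SE, n = 2, limma adjusted p = 0.256). There 67.5% of P probes lay below 0 (median -0.19). In replicate 3 of the 301/005 endosperm, where the MBD probes lay low, 4 of 12 methyltransferase probes lay below the mid-parent (median 0.23), and in replicate 4, where they lay high, 9 of 12 did (median -0.51), the opposite lean to that of the deacetylase probes given above.

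Ratios of the 5 probes ran together only loosely over arrays. The highest Pearson r was 0.46 for MBD101 with MBD109 (36 arrays), followed by 0.38 for MBD101 with MBD106 (37 arrays), and the lowest was -0.18 for MBD109 with MBD113 (33 arrays). Arrays of a loop share RNA and dye, so these coefficients have no p. Among MBD, methyltransferase and deacetylase probes, MBD101 and MBD109 were each most like MBD114, at r 0.55 and 0.53 over 34 arrays. MBD106 was most like DMT101 (r 0.68, 34 arrays), MBD108 most like MBD105 (r 0.64, 31 arrays) and MBD113 most like HDA113 (r 0.43, 33 arrays). The 95th percentile of r with the P probes was 0.452 for MBD101, 0.561 for MBD106, 0.455 for MBD108, 0.493 for MBD109 and 0.299 for MBD113. Over all probes with at least 24 shared arrays, the highest coefficients were 0.73 and 0.70 for MBD101 (probes MB2 and JB1), 0.73 and 0.72 for MBD106 (SDG101 and PREM2), and 0.74 and 0.70 for MBD108 (CHA125 and SGB103). They were 0.67 and 0.66 for MBD109 (VC12 and LF2) and 0.65 and 0.64 for MBD113 (OD12 and DD11). Each was picked as the highest out of 2863 to 2895 probes compared.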

How the data were processed

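The authors deposited 1 table with a log ratio per probe and array, taken as log2 values. The sources used here do not give the log base, background correction, normalization or software. Per the labels' protocols, mRNA was amplified as cDNA by long-distance PCR before labelling with Cy3 or Cy5, which can alter ratios. Controls (7 of 3592 entries) were left out. Ratios were turned to hybrid over inbred by the channel labels, so odd replicates changed sign. No signal intensities were used, so the number of arrays limits the precision.

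Each loop gave 3 values per probe: the mid-parent, reciprocal and inbred difference, by least squares where arrays were missing. Limma 3.58.1 (lmFit, eBayes) in R 4.3.3 fitted all probes together, with 1 coefficient per cross and tissue and a dye coefficient for the mid-parent difference and the single ratios. A probe was tested with at least 2 loops (for these 2 also both dye orientations) and at least 3 residual degrees of freedom. P-values are two-sided, with Benjamini-Hochberg adjustment across every probe tested in a comparison, cross and tissue. The fits were run on simulated data whose noise, beside a dye effect, was independent between arrays, so the shares need not hold for real loops. Of 2-fold changes, 82.1% to 91% were recovered for the mid-parent difference. The shares were 34.1% to 56% for the reciprocal and 34.7% to 60.6% for the inbred difference. Loops are the replicates. The labels call them biological, state a pollination day shared within a set, and do not say how many plants they pool. P-values and SEs cover the spread between these loops, as 1 spread per probe shared by both crosses and tissues and moderated across probes. An SE can therefore be narrower or wider than the loops printed beside it. With the spread of each cross and tissue alone, 1 of 17 reciprocal MBD tests had an unadjusted limma p under 0.05. The deviations of same-numbered arrays from their group means correlated at a median r of 0.18, 0.30, 0.20 and 0.30 (301/005 embryo and endosperm, then 301/250 embryo and endosperm). For other numbers it was -0.12, -0.19, -0.30 and -0.38. Subtracting the group means by itself pushes these other values below 0, most where a group holds few arrays. The gap between same and other numbers is therefore no measure of what loops share.

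All 5 MBD probes are named in each comparison. List genes are those of lowest p. The members and lists were chosen with earlier results of these data known.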

Additional observations from a re-analysis of the deposited data

Results flagged for a closer look

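In endosperm of the hybrid 005x301 over inbred 005, replicate 3 stood apart from the other 3 arrays for both MBD101 and MBD108. MBD101 measured -0.43 there, where the other replicates lay between 0.31 and 0.45. MBD108 measured -1.47, where the others lay between 0.26 and 0.52. The gap to the nearest other array, as a share of the group's range, was above Dixon's 95% critical value for 4 samples in both. Of 15 groups of values examined for the 5 probes, not all of them of single arrays, these 2 passed. Chance passes about 1 group in 20, and the groups share arrays, so they are not independent. Both values come from 1 array, which had 595 P values with a median of -0.08.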

How the results depend on the processing

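Of 59 fitted values examined singly, 31 kept their sign under every alternative run, and 1 of 626 alternative values was called: without the dye coefficient, the single-inbred comparison gave 1 call in place of 0 (MBD108, limma adjusted p 0.041, fewer coefficients fitted). Among all probes 157 were called in that set under the same alternative. The other 4 comparisons kept 0 calls under each alternative. The cause of the following sign changes was not tested. With arrays scaled, MBD101 turned to 0.017 and -0.0106 (mid-parent, 301/250 embryo and endosperm) and -0.0501 (inbred, 301/005 endosperm), MBD106 to 0.00019 and MBD108 to 0.16 (reciprocal, 301/005 endosperm), and MBD113 to -0.0154 (mid-parent, 301/250 embryo). With arrays centred on their median, MBD101 and MBD106 turned to 2.7e-05 and 0.0036 (reciprocal, 301/005 endosperm). Centred on the P set, MBD101 turned to 0.0614 (mid-parent, 301/250 embryo) and 0.21 (reciprocal, 301/005 embryo). MBD106 turned to 0.0039 (mid-parent, 301/250 endosperm), 0.0791 (reciprocal, 301/250 embryo) and 0.0204 (inbred, 301/250 endosperm). MBD108 turned to 0.0065 (mid-parent, 301/250 endosperm), -0.28 (inbred, 301/005 embryo) and 0.0674 (inbred, 301/250 embryo). Fits of single arrays with the replicate block (correlation 0.16), where loops pair the arrays, turned MBD106 to -0.0434 (mid-parent, 301/005 embryo), MBD101 to 0.0028 (reciprocal, 301/005 endosperm) and MBD108 to -0.24 (inbred, 301/005 embryo), and the block changed no call. With no block these were -0.0400, 0.0028 and -0.24, and MBD108 was 0.000305 (inbred, 301/250 embryo).

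Leaving out 1 replicate number at a time (a lone loop is then assumed to vary like the others) turned the sign of 26 values. For the mid-parent difference a lone loop is also shifted by the dye coefficient, which then comes from other crosses and tissues. These ranges can therefore reach beyond the loops. The MBD106 loops in the 301/250 embryo were -0.02 and 0.11, where the range below is -0.36 to 0.45. Mid-parent ranges were -0.38 to 0.17 and -0.0873 to 0.0113 for MBD101 in 301/250 embryo and endosperm, -0.0655 to 0.46 for MBD106 in the 301/005 embryo, and -0.36 to 0.45 and -0.38 to 0.28 for MBD106 in 301/250 embryo and endosperm. For MBD109 they were -0.21 to 0.0132 in the 301/005 endosperm, and -0.47 to 0.10 and -0.27 to 0.0484 in 301/250 embryo and endosperm. Reciprocal ranges were -0.41 to 0.0256, -0.29 to 0.18 and -0.12 to 0.044 for MBD101 in 301/005 embryo, 301/005 endosperm and 301/250 endosperm, and -0.14 to 0.0556 and -0.29 to 0.0419 for MBD106 in the 301/005 endosperm and 301/250 embryo. They were -0.31 to 0.0041 for MBD108 in the 301/005 endosperm, and -0.51 to 0.0873 and -0.83 to 0.34 for MBD109 in the 301/005 endosperm and 301/250 embryo. Inbred ranges were -0.0846 to 0.28 for MBD101 in the 301/005 endosperm, and -0.54 to 2.62, -0.28 to 0.52 and -0.35 to 0.11 for MBD106 in 301/005 embryo, 301/250 embryo and 301/250 endosperm. For MBD108 they were -0.79 to 0.85 and -0.15 to 0.0826 in 301/005 and 301/250 embryo. For MBD109 they were -0.35 to 0.15, -0.32 to 0.76 and -1.08 to 0.36 in 301/005 endosperm, 301/250 embryo and 301/250 endosperm, and for MBD113 -0.13 to 0.53 in the 301/250 endosperm. A spread from the loops of 1 cross and tissue alone left no degrees of freedom beside the dye coefficient with 2 loops, so it was not run there. Most MBD values rest on 2 loops, and signal over background is unknown.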
